A study of Rattus norvegicus with 24 samples.

Results

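The comparison described here is that of serum microRNAs (miRNAs) between rats that breathed ozone and rats that breathed filtered air while both were fed a fish oil diet. It holds 11 of the 23 libraries in the count table, 6 from air and 5 from ozone, chosen by the diet and exposure given for each rat. The series has 24 samples in its labels, and the second fish oil ozone rat was not analysed here. All animals were male Wistar Kyoto rats that started their diet at 4 weeks of age and stayed on it for 8 weeks, so they were about 12 weeks old at exposure. The fish oil groups ate chow enriched to 6% fish oil by weight, and no diet with another oil was included. The ozone group received 0.8 ppm (0.8045 ppm measured) for 4 h a day on 2 consecutive days, and the air group was handled in filtered air over the same hours and days. The other 12 libraries come from rats on normal chow under the same 2 exposures and were fitted together with the fish oil libraries, so they also bear on which miRNAs were tested and on the estimated spread. With only the fish oil libraries fitted, 114 miRNAs were tested, 0 passed and 4 had an unadjusted p under 0.05. Small RNA was isolated from 100 µl of serum of each rat, and 10 ng was made into a library. Each library is 1 rat, so the p-values below set a difference against the spread between rats. In the joint fit that spread was estimated with the normal diet rats included.

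Serum miRNAs are short regulatory RNAs that cells release in vesicles or bound to proteins, or spill when they are damaged. A miRNA represses messenger RNAs that pair with its seed, the bases from the second to the eighth, so miRNAs with the same seed are treated as a family. Some are made largely by 1 tissue, such as miR-122 by hepatocytes, and their serum level is used as a sign of release from that tissue. Ozone is an oxidant gas that injures the airway epithelium and also acts on the liver, the vessels and the circulating stress hormones. In serum, a change in how many cells release a miRNA and a change in how much each cell releases cannot be told apart.

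The mature sequences below belong to 7 of the 10 miRNAs with an unadjusted p under 0.05 in the comparison, with 1 relative of the same seed beside let-7i-5p, miR-181d-5p and miR-130a-3p to show how closely such relatives resemble each other. They are from RefSeq (rat assembly GRCr8), written 5′ to 3′ with the seed in capitals. Of the 136 miRNAs tested, 125 matched a RefSeq mature sequence by name.
miR-375-3p: uUUGUUCGuucggcucgcguga
miR-146a-5p: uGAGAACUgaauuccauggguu
miR-141-3p: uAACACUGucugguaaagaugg
miR-192-5p: cUGACCUAugaauugacagcc
let-7i-5p: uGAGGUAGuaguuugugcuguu
let-7g-5p: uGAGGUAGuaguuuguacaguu
miR-181d-5p: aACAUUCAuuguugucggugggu
miR-181b-5p: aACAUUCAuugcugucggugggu
miR-130a-3p: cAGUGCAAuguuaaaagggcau
miR-130b-3p: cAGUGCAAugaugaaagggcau

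The air libraries held 23276 to 53694 miRNA counts each and the ozone libraries 26772 to 45064, against 33739 to 94264 in the normal diet libraries. At these totals 3 counts correspond to 47.8 to 117 CPM (a miRNA's counts as a share of its library's scaled total, in the usual per-million unit), which sets the lowest level that can be told from none. The ozone libraries averaged 33302 ± 7385 counts (SD, n = 5) and the air libraries 37262 ± 11332 (SD, n = 6; two-sided exact permutation test, p = 0.606). The share of miRNA counts in the read total implied by the deposited RPM values was 0.826% ± 0.335 in ozone and 0.660% ± 0.181 in air (exact permutation test, p = 0.403), and it was highest in ozone libraries 3 and 4 (1.20% and 1.15%). miRNAs detected with at least 5 counts numbered 140.6 ± 9.89 in ozone and 150.0 ± 12.2 per library in air (exact permutation test, p = 0.212). The erythrocyte index, the log2 level of miR-451-5p minus that of miR-23a-3p, which rises when red cells break in the tube, was -2.11 ± 1.21 in ozone and -1.83 ± 0.62 in air (exact permutation test, p = 0.632). All 6 library measures, the implied read total and the share of the 5 most abundant miRNAs included, had an adjusted p of 0.654, where 6 against 5 libraries could reach 0.00433 before adjustment.

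**Figure D1:**
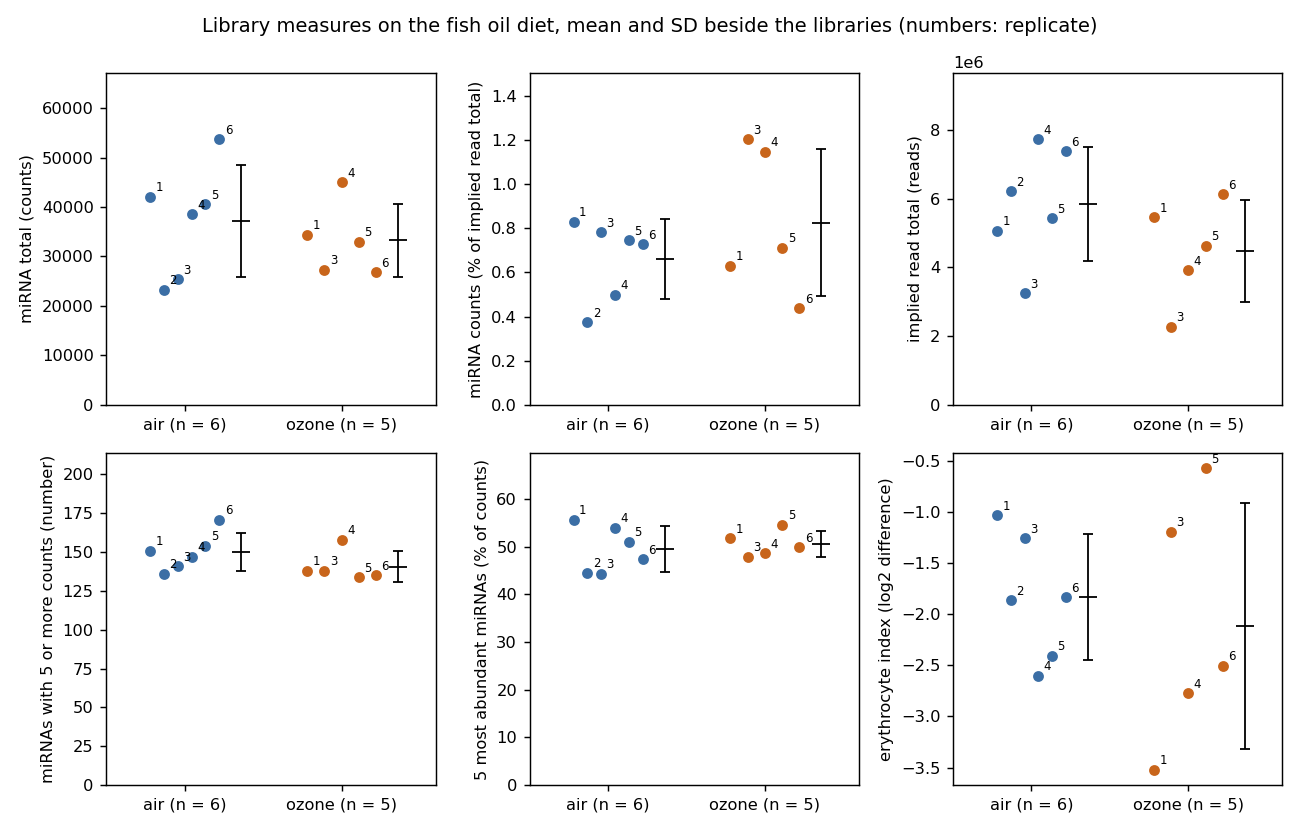
Library measures (vertical axes, units on each axis) of the 6 air and 5 ozone libraries on the fish oil diet, 1 point per library with its replicate number, and the mean with SD in black. The groups overlap in all 6 panels, and ozone libraries 3 and 4 have the highest miRNA shares, at 1.20% and 1.15% of the implied read total.

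Of the 136 miRNAs tested, 0 (0%) passed an adjusted p of 0.05 between ozone and air on the fish oil diet in edgeR's quasi-likelihood test, and the smallest adjusted p was 0.659. DESeq2 and limma voom also called 0. At an unadjusted p under 0.05 edgeR gave 10 miRNAs (7.35%), of which 7 were higher and 3 lower in ozone, and DESeq2 and limma voom gave 9 each. In 0 of the 136 did the air and ozone libraries fall into ranges that do not overlap. The differences lay between -1.04 and 1.35 on the log2 scale, with a median of -0.02, and 64 (47.1%) were positive. Their SE had a median of 0.33, so the data bound large effects better than small ones. The 95% interval stayed within 4-fold either way for 131 miRNAs (96.3%), within 2-fold for 70 (51.5%) and within 1.5-fold for 6 (4.41%). Those 6 were let-7g-5p, miR-16-5p, miR-24-3p, miR-28-3p, miR-221-3p and miR-425-5p, singled out after their values were seen.

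Libraries correlated with their own group and with the other group to a similar degree. The mean Pearson correlation of log2 CPM over the 136 miRNAs was 0.921 among the 15 pairs of air libraries, 0.917 among the 10 pairs of ozone libraries and 0.919 over the 30 mixed pairs. Air library 3 and ozone library 3 stood farthest from the rest, with mean correlations of 0.886 and 0.885. Ozone libraries 1, 4 and 6 correlated slightly more with the air libraries (means of 0.922, 0.937 and 0.941) than with the other ozone libraries (0.917, 0.936 and 0.916). In the same way, air libraries 3 and 4 correlated more with the ozone libraries (0.891 and 0.945) than with the other air libraries (0.881 and 0.926).

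Among the miRNAs with the smallest p, epithelial ones stood on the higher side. miR-200a-3p and miR-429, which keep epithelial cells in their junctional state by repressing the ZEB factors, lie about 1 kb apart on chromosome 5 (chr5:176963402-176963424 and chr5:176962364-176962386, rn5, positions as the file gives them). miR-200a-3p ranged from 583 to 1658 CPM in air (median 1447) and stood at 1354, 3025, 2656, 3073 and 971 CPM in ozone libraries 1, 3, 4, 5 and 6. Ozone libraries 3, 4 and 5 lay above every air library, and libraries 1 and 6 lay inside the air range. The log2 difference was 0.84 (SE 0.33, 95% interval 0.17 to 1.52), with an unadjusted p of 0.0159 in edgeR's test, the smallest of the 136. This difference was lowest, at 0.62, without ozone library 3 (edgeR, unadjusted p = 0.0877). It was 0.66 without air library 1 (edgeR, unadjusted p = 0.0602) and 0.67 without ozone library 5 (edgeR, unadjusted p = 0.0737). With any other 1 library left out the unadjusted p in edgeR's test was under 0.05, and it was smallest, at 0.00609, without ozone library 6. miR-429 was scarce, from 0 to 194 CPM in air (median 65.7) and 123, 329, 203, 233 and 243 CPM in the 5 ozone libraries, a mean of 5.36 counts. It was at 0 in air libraries 1 and 2, and 4 of the 5 ozone libraries were above the highest air library. Its log2 difference was 1.35 (SE 0.63, 95% interval 0.05 to 2.64), the highest of all, with an interval almost reaching 0.

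miR-141-3p (chr4:224253957-224253979), which belongs to the same epithelial family, ranged from 409.7 to 1259 CPM in air (median 530.4), where 1 library was far above the other 5, and stood at 523, 1249, 1306, 2256 and 516 CPM in ozone. Ozone libraries 3, 4 and 5 were high, at about the level of that 1 air library or above it, and libraries 1 and 6 sat at the air median. The log2 difference was 0.86 (SE 0.41, 95% interval 0.03 to 1.69), and 0.51 without ozone library 5 (edgeR, adjusted p = 0.813). The other 2 tested miRNAs of the epithelial list had values near or below 0: miR-203a-3p, abundant in keratinocytes and other squamous cells, differed by 0.09 (95% interval -0.50 to 0.68), and miR-205 by -0.52 (95% interval -1.46 to 0.43). Of the 5 tested epithelial miRNAs, 0 passed the adjusted threshold, 4 were positive and the median was 0.84, against -0.02 over all miRNAs tested. It was 0.66 to 1.09 under the other scalings and 0.51 (without ozone library 5) to 0.99 with 1 library left out. The number positive was 3 of 5 when scaled to the total miRNA count, and also without air library 1, air library 3 or ozone library 4. miR-34b-3p, miR-34c-5p and miR-449a-5p, which mark ciliated airway cells, had at most 6 counts in any library and were not tested. Of the white cell markers, miR-142-3p was at 0 in 9 of the 11 libraries, while miR-142-5p from the same hairpin (34 to 165 counts), miR-223-3p (18 to 81) and miR-150-5p (12 to 61) were counted in all 11.

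miR-375-3p (chr9:81930305-81930327), made in pancreatic islets, neuroendocrine cells and several epithelia, had the next smallest p. It ranged from 519 to 1594 CPM in air (median 1015) and stood at 1477, 2038, 2183, 2295 and 911 CPM in ozone. The same 3 ozone libraries, 3, 4 and 5, were above all air libraries, and ozone library 6 was below the air median. The log2 difference was 0.81 (SE 0.33, 95% interval 0.13 to 1.49), unadjusted p = 0.0198 in edgeR's test. With 1 library left out it ranged from 0.68 (without air library 3) to 0.96 (without ozone library 6). The unadjusted p in edgeR's test was 0.0593 without air library 1. miR-182, another miRNA of sensory and epithelial cells, reached 369, 592, 923, 1128 and 849.9 CPM in ozone against a highest air value of 760.6 CPM, with a log2 difference of 0.68 (95% interval -0.07 to 1.44). miR-146a-5p (chr10:28806796-28806818), a brake on NF-kB signalling that is induced by inflammation, ranged from 2789 to 6152 CPM in air (median 4638) and stood at 3078, 9403, 7270.3, 9802 and 5312 CPM in ozone. Here too ozone libraries 3, 4 and 5 exceeded all air libraries while ozone library 1 was near the bottom of the air range, and the log2 difference was 0.62 (SE 0.29, 95% interval 0.03 to 1.20). Without ozone library 3 it was 0.40 (edgeR, unadjusted p = 0.187, adjusted p = 0.877). Its relative with the same seed, miR-146b-5p, differed by -0.21 (95% interval -0.68 to 0.27). Ozone libraries 3 and 4 are also those with the highest miRNA share and the lowest implied read totals of the ozone group (2268525 and 3924626 reads), and the part of this in the miRNA values was not tested.

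**Figure D2:**
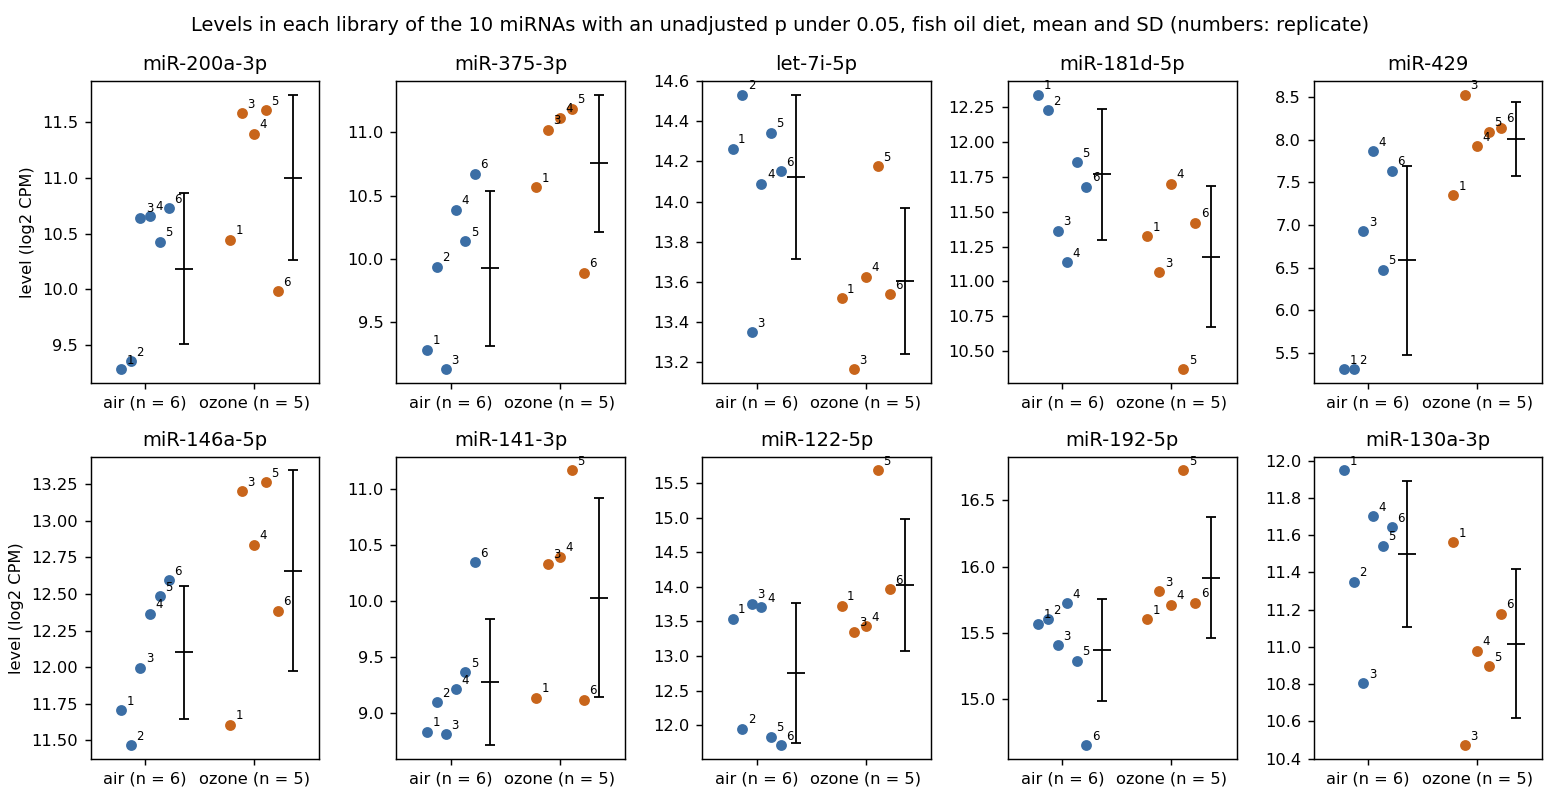
Levels in log2 CPM (vertical axes, each with its own range) of the 10 miRNAs with an unadjusted p under 0.05, 1 point per library with its replicate number, 6 air and 5 ozone, and the mean with SD in black. The groups overlap in all 10 panels. Ozone library 5 is the highest point for miR-122-5p and miR-192-5p.

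The liver miRNAs had higher values in ozone, and 1 library carried much of the difference. miR-122-5p (chr18:59956825-59956847), the most abundant miRNA of hepatocytes, ranged from 3315 to 13822 CPM in air (median 7892) and stood at 13513, 10422, 11029, 52547 and 15936 CPM in ozone. All 5 ozone libraries were above the air median, but only libraries 5 and 6 were above the highest air library, and library 5 stood more than 3-fold above any other. The log2 difference was 1.32 (SE 0.61, 95% interval 0.04 to 2.59). Without ozone library 5 it was 0.59 (edgeR, unadjusted p = 0.313, adjusted p = 0.862). miR-192-5p, shared by liver, gut and kidney, ranged from 25756 to 54075 CPM in air (median 46084) and stood at 49865, 57698, 53706, 108400.2 and 54242 CPM in ozone, again with library 5 far above the rest. Its log2 difference was 0.57 (SE 0.27, 95% interval 0.01 to 1.13), and 0.32 without ozone library 5 (edgeR, adjusted p = 0.813). miR-194-5p lies next to miR-192-5p on chromosome 1 (chr1:228619901-228619923 and chr1:228620095-228620116) and was counted there and at a second site on chromosome 13. It had a mean of only 5.82 counts and differed by 0.65 (95% interval -0.51 to 1.81). The 3 tested liver miRNAs were all positive under every scaling tried, with a median of 0.65, or 0.41 without ozone library 5. Their summed level was 29150 to 67559 CPM in air and 63654 to 161297 CPM in ozone, ranges that overlap.

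Lower values in ozone were found for 3 miRNAs at an unadjusted p under 0.05. let-7i-5p (chr7:67000241-67000263), a member of the let-7 family that restrains growth and inflammatory signalling, ranged from 10408 to 23652 CPM in air (median 18896) and stood at 11697, 9139.6, 12605, 18475 and 11868 CPM in ozone. All 5 ozone libraries were below the air median and 1 was below the lowest air library. The log2 difference was -0.52 (SE 0.22, 95% interval -0.96 to -0.08), unadjusted p = 0.0227 in edgeR's test. It was -0.44 without air library 2 (edgeR, unadjusted p = 0.0638) and -0.64 without ozone library 5 (edgeR, unadjusted p = 0.00270). let-7g-5p carries the same seed and averaged 6206 ± 1742 CPM in air and 6107 ± 512 CPM in ozone, with a log2 difference of -0.02 (95% interval -0.46 to 0.41). Over the 9 tested let-7 miRNAs the median was -0.10 and 7 were negative, but 7 of 9 were positive when libraries were scaled to the implied read total, which moved the median of all miRNAs to 0.22. Without air library 2, air library 4 or ozone library 3, 4 of 9 were positive.

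miR-181d-5p (chr19:36267201-36267224), of a family that tunes lymphocyte signalling, ranged from 2215 to 5132 CPM in air (median 3449) and stood at 2524, 2104, 3286, 1284 and 2701 CPM in ozone. Again every ozone library was below the air median, and libraries 3 and 5 were below all air libraries. The log2 difference was -0.59 (SE 0.25, 95% interval -1.10 to -0.07), and -0.39 without ozone library 5. The related miR-181b-5p differed by -0.40 (95% interval -0.92 to 0.11) and miR-181a-5p, the most abundant of the family, by -0.18 (95% interval -0.70 to 0.34). miR-130a-3p (chr3:78661709-78661731), known from haematopoietic and endothelial cells, ranged from 1748 to 3911 CPM in air (median 3050.2) and stood at 2986, 1381, 1981, 1867 and 2277 CPM in ozone. Only ozone library 3 lay below the lowest air library, and the log2 difference was -0.49 (SE 0.24, 95% interval -0.96 to -0.01). For miR-130a-3p it was -0.35 without ozone library 3 (edgeR, unadjusted p = 0.164) and -0.66 without ozone library 1 (edgeR, unadjusted p = 0.0107). Its relative miR-130b-3p was from 464 to 1268 CPM in air (median 929.9) and 462, 98.6, 495, 583 and 1093 CPM in ozone, a log2 difference of -0.67 (95% interval -1.44 to 0.10).

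**Figure D3:**
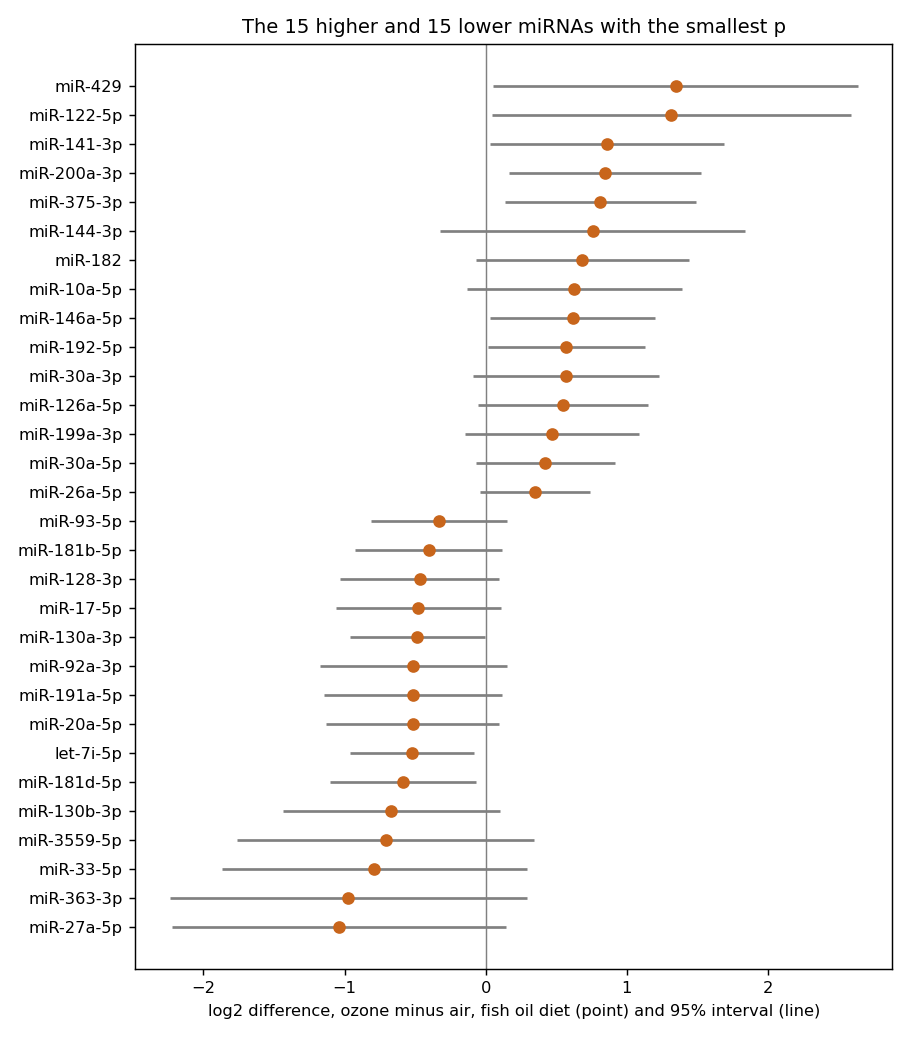
Log2 differences, ozone minus air on the fish oil diet (horizontal axis), with 95% intervals as lines, for the 15 miRNAs higher and the 15 lower in ozone with the smallest p. The intervals of 10 leave out 0 before adjustment, and 0 of 136 passed after it.

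The 10 most abundant miRNAs of each library held 62.0% ± 4.07 of its counts in air and 64.5% ± 2.21 in ozone (SD). miR-143-3p, the smooth muscle miRNA that took 26.5% of all counts, ranged from 110058 to 381015 CPM in air (median 245109) and stood at 351145, 240292, 267876, 436051 and 167490.2 CPM in ozone, with a log2 difference of 0.25 (95% interval -0.44 to 0.94). miR-191a-5p, abundant in platelets, differed by -0.52 (95% interval -1.14 to 0.11), having ranged from 45685 to 151203 CPM in air (median 101594), with 1 ozone library below that range. miR-22-3p, found in blood cells and muscle, differed by 0.11 (95% interval -0.38 to 0.60), and miR-21-5p, raised in many inflamed tissues, by 0.15 (95% interval -0.30 to 0.60). miR-25-3p and let-7c-5p differed by -0.16 and 0.26. miR-10a-5p was above the highest air library in 4 of 5 ozone libraries and below the lowest in library 6, with a log2 difference of 0.63 (95% interval -0.13 to 1.39). miR-30a-5p, from epithelia and kidney among others, differed by 0.42 (95% interval -0.07 to 0.92) and the endothelial miR-126a-5p by 0.55 (95% interval -0.06 to 1.15). Each had 3 ozone libraries above all air libraries, and in both ozone library 6 was the lowest of the ozone libraries. miR-26a-5p, a steady and widely expressed miRNA, ranged from 7731 to 10217 CPM in air (median 8666) and stood at 10065, 12197, 12920.0, 12019 and 9409.6 CPM in ozone, a log2 difference of 0.35 (95% interval -0.04 to 0.74).

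By origin or role, 0 members of any list passed the adjusted threshold, so the lists are described by their counts and medians beside the median of -0.02 over all 136. All 6 vascular wall miRNAs, among them miR-143-3p and miR-126a-5p, were positive with a median of 0.21, but 2 of the 6 were negative when scaled to the total miRNA count. The median was 0.083 without air library 2 and 0.36 without air library 4. All 4 mesenchymal miRNAs were positive under every scaling and with any 1 library left out, with a median of 0.45, or 0.27 without ozone library 3 and 0.68 without ozone library 6. In that list miR-497-5p differed by 0.61 (95% interval -0.26 to 1.48) and the fibroblast miRNA miR-199a-3p by 0.47 (95% interval -0.15 to 1.08). These were 0.26 without ozone library 3 and 0.26 without ozone library 1. The erythrocyte list had 5 of 7 negative and a median of -0.16, and 3 of 7 negative under the implied read total. Its median was -0.09 without air library 3 and -0.30 without ozone library 5. Its defining member miR-451-5p stood at 92.3 (3 counts), 986, 585, 1089 and 455 CPM in ozone, a log2 difference of -0.40 (95% interval -1.47 to 0.68). miR-144-3p from the same cluster differed by 0.76 (95% interval -0.32 to 1.84), a value that was 0.0096 without ozone library 3. Of 9 platelet miRNAs 5 were positive (median 0.06), of 6 lymphocyte miRNAs 2 (median -0.11) and of 6 myeloid and inflammatory miRNAs 5 (median 0.13), and these counts were 3, 1 and 2 when scaled to the total miRNA count and 7, 5 and 6 under the implied read total. The myeloid list had 2 positive and a median of -0.11 without ozone library 3. The 3 striated muscle miRNAs had a median of 0.15, -0.08 when scaled to the total miRNA count, and miR-1-3p, from heart and skeletal muscle, had an interval of -1.46 to 1.76. The muscle median was -0.21 without ozone library 5 and 0.57 without air library 2.

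Both treatments had a list of their own, lipid metabolism for the diet and oxidative or hypoxic stress for the gas. The 13 miRNAs known to act on cholesterol or fatty acid genes had 6 positive and 7 negative values and a median of -0.08. This became 8 positive, with a median of 0.22, under the implied read total, and 3 positive, with a median of -0.19, without ozone library 3. In that list miR-33-5p, which represses the cholesterol exporter ABCA1, stood at 92.3, 460.3, 67.5, 156 and 182 CPM in ozone. These values rest on 3, 14, 3, 4 and 6 counts. In air it ranged from 159 to 616 CPM (median 310.2), and the log2 difference was -0.79 (95% interval -1.87 to 0.29). The fatty acid regulators miR-27b-3p and miR-103-3p differed by 0.17 (95% interval -0.30 to 0.63) and -0.26 (95% interval -0.79 to 0.26). Of 9 miRNAs tied to oxidative or hypoxic stress, 5 were positive with a median of 0.11, or -0.01 with 4 positive when scaled to the total miRNA count, and 0.0096 without ozone library 3. miR-210-3p, the miRNA most directly induced by hypoxia, differed by -0.39 (95% interval -1.09 to 0.30). miR-3574 is given at the same position with the same counts in all 23 libraries, although their mature sequences are reverse complements. These counts therefore did not separate the strands. miR-3596a likewise shares the position and mean count (37.3) of the chromosome 8 copy of let-7a-5p, its reverse complement.

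**Figure D4:**
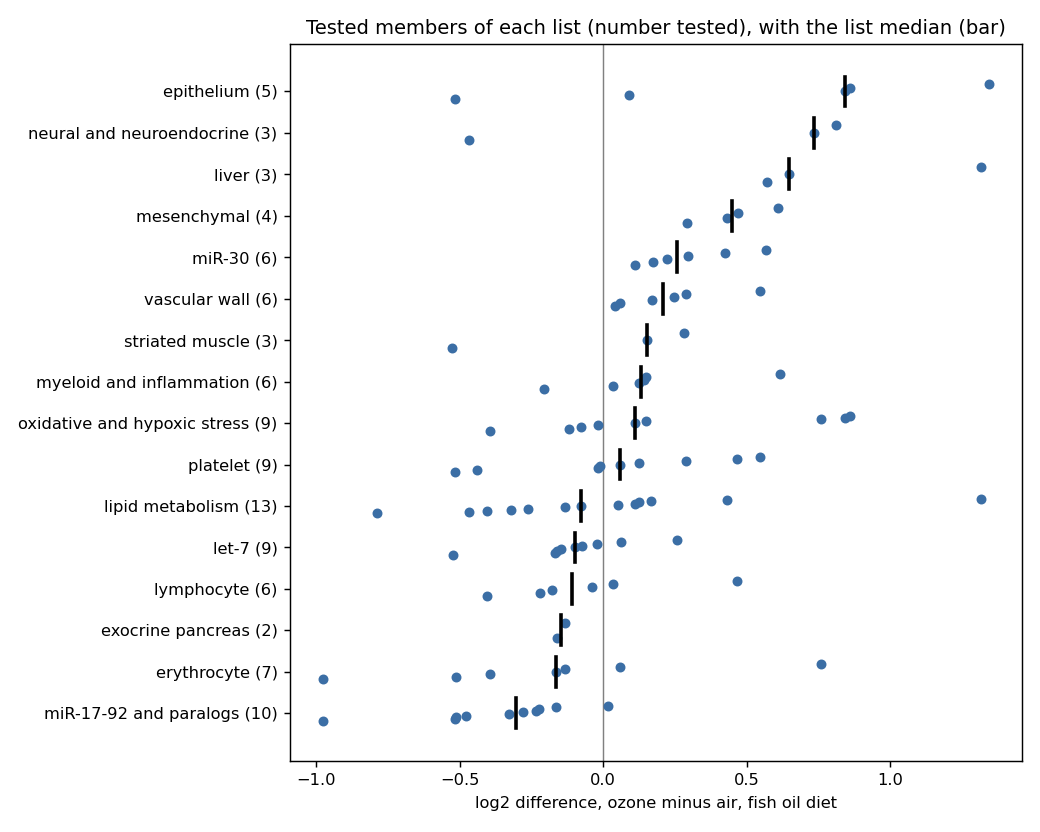
Log2 differences, ozone minus air on the fish oil diet (horizontal axis), of the tested members of each list (points, number tested in brackets), with the list median as a black bar. Medians run from -0.30 for miR-17-92 and its paralogs to 0.84 for the epithelial list, and no single member passed the adjusted threshold.

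Some families and neighbouring miRNA genes had values of 1 sign. The 5 miRNAs counted from the miR-17-92 cluster on chromosome 15 (chr15:103640915-103641677), which promotes growth of blood cells, were all negative under every scaling, from -0.52 for miR-20a-5p to -0.23 for miR-19b-3p, with a median of -0.48. Without air library 3, 2 of the 5 were positive, and without ozone library 6 the median was -0.74. miR-20a-5p was from 1412 to 2391 CPM in air (median 1846) and stood at 923, 1447, 1125, 1089 and 2094 CPM in ozone, where libraries 1, 4 and 5 lay below all air libraries. miR-92a-3p, the most abundant of them, had all 5 ozone libraries below the air median and a log2 difference of -0.51 (95% interval -1.18 to 0.15). Reads of miR-17-5p, miR-19b-3p and miR-92a-3p were summed with those of copies on the X chromosome. With the paralogs, 9 of 10 were negative (7 of 10 without air library 3) with a median of -0.30, and miR-363-3p, which is scarce, was lowest at -0.97 (95% interval -2.24 to 0.29). The 4 miRNAs with the seed AUUGCAC (miR-25-3p, miR-92a-3p, miR-92b-3p and miR-363-3p) were all negative, with a median of -0.39, but 2 of the 4 were positive under the implied read total and 1 of the 4 without air library 2. The median was -0.19 without ozone library 3 and -0.58 without ozone library 6. All 6 tested miR-30 miRNAs were positive with a median of 0.26, but 1 of the 6 was negative when scaled to the total miRNA count and 2 of the 6 without ozone library 3. The median was 0.16 without air library 6. Arms of 1 hairpin were not tested against each other. miR-27a-5p, the minor arm with a mean of 8.36 counts, had the lowest difference of all, -1.04 (95% interval -2.23 to 0.14). The other arm, miR-27a-3p, differed by -0.08 (95% interval -0.74 to 0.59), and the intervals overlap.

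Ozone on the normal diet was compared in the same way to ask whether diet altered the difference. On that diet 0 of 136 miRNAs (0%) passed in edgeR's test, 4 (2.94%) had an unadjusted p under 0.05, and the smallest adjusted p was 0.186. DESeq2 called 1, miR-22-3p, lower in ozone with a log2 difference of -0.79 (adjusted p = 0.00611), and edgeR called it without normal diet air library 3 (adjusted p = 0.0364). Over the 136 miRNAs the differences on the 2 diets had a Pearson correlation of -0.06 and a Spearman correlation of -0.03, and 68 (50%) had the same sign. Each diet has its own air and ozone libraries. The test of the difference between diets, an interaction term, called 0 (0%), with 6 miRNAs (4.41%) at an unadjusted p under 0.05 and a smallest adjusted p of 0.468. DESeq2 and limma voom also called 0 for the interaction, each with 6 at an unadjusted p under 0.05.

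The 5 with the smallest interaction p were let-7i-5p, miR-200a-3p, miR-22-3p, miR-181d-5p and miR-192-5p. The interaction includes the fish oil difference itself, so this ranking is not independent of the one on fish oil. let-7i-5p differed by -0.52 on fish oil and 0.35 on the normal diet, where it averaged 14863 ± 2051 CPM in air and 18929.8 ± 3551 CPM in ozone (SD). Its interaction was -0.87 (SE 0.30), unadjusted p = 0.00663 in edgeR's test. miR-200a-3p differed by 0.84 and -0.45, an interaction of 1.30 (SE 0.46). miR-181d-5p and miR-192-5p had interactions of -0.90 (SE 0.34) and 0.93 (SE 0.38), with normal diet differences of 0.31 and -0.36. miR-22-3p had a difference of -0.77 on the normal diet against 0.11 on fish oil, an interaction of 0.88 (SE 0.33). miR-375-3p lay on the same side on both diets: its difference on the normal diet was 0.996 (edgeR, unadjusted p = 0.00274), and its interaction was -0.18 (SE 0.45). The 3 liver miRNAs had a median of 0.65 on fish oil (0.41 without ozone library 5) and -0.69 on the normal diet. miR-122-5p had an interaction of 2.07 (SE 0.85), which did not pass the adjusted threshold. Its difference on fish oil was 0.59 without ozone library 5, and it ranged from 4489 to 74004 CPM in the normal diet air libraries.

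**Figure D5:**
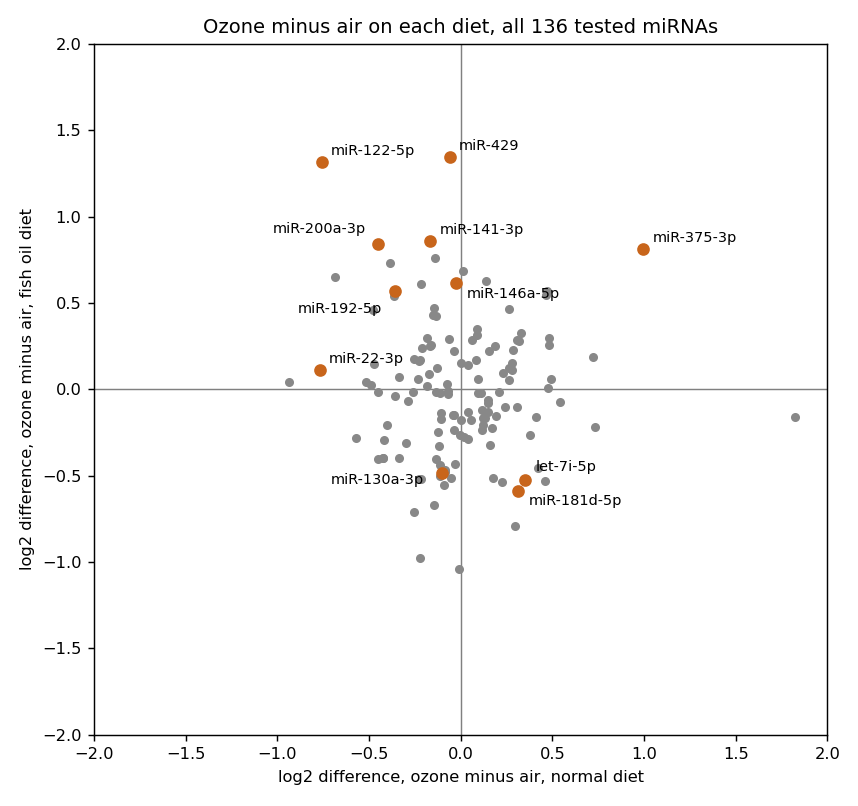
Log2 differences, ozone minus air, on the normal diet (horizontal axis) and on the fish oil diet (vertical axis) for the 136 tested miRNAs (points). The orange points are the miRNAs named by an unadjusted p under 0.05 on fish oil or a small interaction p. The Pearson correlation over the points is -0.06, and miR-375-3p lies on the higher side of both axes.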

How the data were processed

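Small RNA libraries from rat serum were sequenced as single-end reads of 50 cycles. The build is rn5 and the tools named are Partek, bcl2fastq and Bowtie 1.0.0, per the submitters' processing notes. How reads were counted is not given in the sources used here. Both deposited tables come from the authors: they deposited estimated counts per miRNA locus (832 loci, 753 names, 50 loci with fractions) and RPM values per miRNA name. Loci of 1 name were summed and the sums rounded to whole counts. The RPM values divided into the counts gave an implied read total per library.

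Counts were tested with edgeR 4.0.16 (R 4.3.3): TMM scaling, filterByExpr by group (minimum count 10, minimum total 15), which left 136 names with 99.1% of the fish oil counts, and 1 robust quasi-likelihood fit of all 4 groups (23 libraries). Contrasts gave ozone against air on each diet and their interaction, with Benjamini-Hochberg adjustment over 136 and a threshold of 0.05. CPM are TMM-scaled, and log2 CPM used a prior count of 2. The 440 names with any count entered only an alternative fit, the one without a filter. Alternatives were DESeq2 1.42.0, limma 3.58.1 (voom, and log2 RPM with pseudocounts of 1 and 10), other scalings and filters, and leaving out each library. The test was checked on simulated counts. Library measures were compared by two-sided exact permutation over 462 splits. Figures were drawn with matplotlib 3.10.9.

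The comparison and the miRNA lists were chosen with earlier results of these data known. The text names the 15 higher and 15 lower miRNAs with the smallest p, the 10 most abundant, list members, and the 5 with the smallest interaction p, in each case as needed. Intervals and the limit of 3 counts cover the spread between rats or counting error only, since PCR reads without molecular identifiers are not independent molecules. Replicate numbers follow accession order and pair no rats.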

Additional observations from a re-analysis of the deposited data

Results flagged for a closer look

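In 6 of 82 groups of values checked, 1 library stood apart from the rest of its group. Its gap was larger than the 95% critical value for that group size. About 1 in 20 groups would pass that value if the values were independent and normally distributed. The groups include CPM of 35 named miRNAs, many picked by their values in these libraries, so 6 of 82 cannot be set against that rate. Ozone library 4 had 158 miRNAs with 5 or more counts, against 134 to 138 in the other ozone libraries, and it had the highest total of them. Ozone library 5 had 52547 CPM of miR-122-5p against 10422 to 15936, and 108400.0 CPM of miR-192-5p against 49865 to 57698. Ozone library 4 had 315 CPM of miR-363-3p against 0 to 91.1. Air library 6 had 1259 CPM of miR-141-3p against 409.7 to 619, and air library 4 had 7199 CPM of miR-128-3p against 19573 to 25432. The cause of these values was not tested.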

How the results depend on the processing

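Ozone on fish oil gave 0 calls under all 13 other settings and all 11 sets with 1 library left out, with smallest adjusted p-values of 0.321 to 0.998 and 0.272 to 0.900. The number at an unadjusted p under 0.05 was less steady: 5 with DESeq2 size factors, 3 with the total count or the implied read total, 4 without the 5 most abundant miRNAs in the library size, 1 with the authors' RPM, 34 of 440 with no filter, 5 at a mean of 20 or more counts, 4 on the 114 miRNAs kept when only fish oil libraries were fitted, and 4 to 20 with 1 library left out (20 without ozone library 6, 16 without air library 4). The interaction gave 0 calls throughout, with a smallest adjusted p of 0.050 (total miRNA count) to 0.999. For ozone on the normal diet, DESeq2 and the fit without normal diet air library 3, both chosen after seeing the data, gave 1 call. Leaving out 1 library moved the difference in miRNAs with 5 or more counts between -13.75 and -5.2. The exact permutation p was 0.0286 without ozone library 4, the ozone library with the highest total, and this was the smallest of the 11 sets. With all libraries thinned to 23276 counts the difference was -3.6 (exact permutation test, p = 0.372). The erythrocyte index difference moved between -0.67 and 0.072 (without ozone library 1). Of 39 named miRNAs, 32 kept 1 direction in every alternative and 7 did not. Scaled to the total count, miR-22-3p was -0.011, miR-1-3p -0.080 and miR-203a-3p -0.014. Under the implied read total, miR-25-3p was 0.0079, miR-181a-5p 0.13 and miR-148a-3p 0.22. On RPM, miR-181a-5p was 0.093 and 0.084 with pseudocounts of 1 and 10, and miR-148a-3p 0.042 with 10. With 1 library left out, miR-22-3p ranged from -0.011 to 0.22, miR-21-5p from -0.057 to 0.28, miR-1-3p from -0.21 to 0.57, miR-203a-3p from -0.089 to 0.26 and miR-148a-3p from -0.33 to 0.042. No paired analysis was possible because the replicate numbers are names only and the rats are separate animals. Depth limits what can be seen: a level under 47.8 to 117 CPM is under 3 counts in a fish oil library.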

Other observations

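Many names lay under the limit of the test. Of 391 names with a count in any fish oil library, 138 had a count in all 11, and 255 were not tested, none of these with a total over 78 counts. Counts in air libraries only were found for 50 names and in ozone libraries only for 31, with largest totals of 20 (miR-3586-3p) and 4. The groups were not sampled equally, with 6 air and 5 ozone libraries of 37262 and 33302 counts on average, so these 2 numbers cannot be compared directly. None of the 28 miRNAs of the imprinted Dlk1-Dio3 locus that were looked for reached the filter, and 10 of them were at 0 in all 11 libraries. Of the tested miRNAs, 24 of 62 named as 3p arms and 35 of 67 named as 5p arms had positive differences. The SD of log2 CPM between rats had a median of 0.55 in air and 0.57 in ozone. miR-217-5p, a pancreatic acinar miRNA, was the most variable in air (SD 1.88), from 0 to 1450.3 CPM, and miR-26a-5p the steadiest in air (SD 0.18).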
